A study of Mus musculus with 4 samples.

Results

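The regions described here are m6A peaks in the 3' untranslated region (3' UTR) of cardiac messenger RNAs that were called both in hearts given a CHAPIR mimic and in hearts given a scrambled mimic. Members were selected on the overlap of the deposited peak calls. A member is a line of either deposited peak list that lies on a protein-coding transcript, is annotated to the 3' UTR alone, and shares at least 1 exonic base on the same strand with any line of the other list. The rule kept 2201 of the 3958 3' UTR lines of the control list and 2442 of the 4881 3' UTR lines of the CHAPIR list, which makes 4643 of the 39717 lines in both lists together. The control list had 3' UTR lines on 2097 genes and the CHAPIR list on 2541. Members lay on 1204 genes in the control list and 1331 in the CHAPIR list, on 1414 genes in either and on 1121 in both.

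The study mapped m6A by MeRIP-seq in hearts of C57BL/6 mice. Treated animals were given CHAPIR, a small RNA of the PIWI-interacting class, as a mimic at 30 mg/kg from an osmotic minipump implanted for 14 days, and control animals (NC) a scrambled mimic by the same procedure. The labels place all samples at 2 weeks, and they state the dose for the CHAPIR mimic. Each group gave 1 immunoprecipitated library and 1 input library from whole-heart RNA, and the sources used here do not give the number or age of the animals behind a library. Nothing measured the spread between animals, so no test between the groups was possible and every value below describes these libraries.

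The mark N6-methyladenosine (m6A) is set on nascent mRNA by a writer complex built around METTL3 and METTL14, and it is removed by the demethylases FTO and ALKBH5. It is known to gather around stop codons and in the first part of the 3' UTR of long last exons. There it is read by YTH domain proteins, which are known to speed decay of the mRNA or to alter its translation, and in heart muscle the mark is known to bear on hypertrophic growth.

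The authors called 23155 lines with NC and 16562 with CHAPIR, each from the immunoprecipitated library set against the input of that condition. A line is 1 peak on 1 transcript, so a site shared by several transcripts of a gene appears repeatedly. Lines with the same chromosome, strand and blocks were therefore counted as 1 position, which left 2126 member positions with NC and 2351 with CHAPIR. The authors' fold of a peak is its signal in the immunoprecipitated library divided by that in the input, and its false discovery rate (FDR) is the authors' own. The folds were not scaled between the lists, and the read depth is unknown. Coordinates are on GRCm38, and intervals on shares are 95% Wilson intervals that cover counting error only. The cardiomyocyte markers Myh6, Tnnt2, Tnni3, Ryr2 and Pln had lines in both lists and Actc1 with CHAPIR only. Markers of other cells were present too, with lines for 5 of 6 endothelial, 3 of 5 fibroblast, 4 of 5 smooth muscle and pericyte, 3 of 6 macrophage and 3 of 4 adipocyte markers with NC. With CHAPIR the counts were 4, 4, 4, 5 and 0 of the same markers. The adipocyte markers Adipoq, Cfd and Plin1 therefore had lines with NC and none with CHAPIR. The part of cell makeup in the results below was not tested.

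The overlap itself was used to choose the members and is given as a description. Of all lines in the NC list, 50.5% were overlapped by the CHAPIR list, against 55.6% (54.1 to 57.2) of the NC 3' UTR lines. With CHAPIR the order was the other way, with 72.3% of all lines overlapped and 50% (48.6 to 51.4) of the 3' UTR lines. Lines confined to the coding sequence were overlapped for 38.4% (37.4 to 39.5) of the NC list and 87.6% (86.6 to 88.5) of the CHAPIR list. Lines crossing the stop codon were overlapped for 71.4% and 83.3%. With CHAPIR the 3' UTR thus had a lower overlapped share than coding sequence or stop codon lines, while with NC it had a higher share than coding sequence lines. The lists differ in length, which bears on these shares.

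The partner of a member was mostly another 3' UTR peak. For 83.1% of NC member positions the CHAPIR line sharing most bases was itself annotated to the 3' UTR, and for 77.0% of CHAPIR member positions the same held of the NC line. A line crossing the stop codon was the best partner of 167 NC positions (7.86%, 6.79 to 9.08) and of 351 CHAPIR positions (14.9%, 13.5 to 16.4). Such a partner can arise from another transcript model alone, so those on the same transcript were counted apart. They were 89 of 2126 NC positions (4.19%, 3.41 to 5.12) and 215 of 2351 CHAPIR positions (9.15%, 8.05 to 10.4). On a single transcript, the pattern of an NC peak reaching across the stop codon with a CHAPIR peak confined to the 3' UTR was therefore the more frequent of the pair. The lists also differed in makeup, with 3124 stop codon crossing lines with NC and 2151 with CHAPIR. Their 3' UTR lines numbered 3958 and 4881, and the part of this makeup in the counts was not tested. Most other partners lay on transcripts of the same gene with a non-coding annotation, and 16 NC and 13 CHAPIR positions had their best partner under another gene symbol.

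Named cases of both patterns were chosen after their values were seen, as those with the most shared bases. Pdk4, the kinase that switches off pyruvate dehydrogenase in the fasted heart, had an NC peak of 865 bases across the stop codon (chr6:5484601-5485465, minus strand, 5.04-fold). Its CHAPIR peak of 805 bases (chr6:5484631-5485435, 5.94-fold) lay wholly inside the NC peak and within the 3' UTR. Cdh5, the cadherin of endothelial junctions, had an NC peak of 1194 bases at 3.50-fold and a CHAPIR peak of 687 bases at 16.1-fold that ended at the same base, chr8:104143796. Pdgfa, Atp1b3 and Glg1 also had an NC peak across the stop codon and a CHAPIR peak in the 3' UTR. Of these, only the Glg1 CHAPIR peak lay wholly inside its NC peak. In the reverse arrangement, the transcription factor genes Klf4 and Nfic, together with Gnai2, Lynx1 and Ccser2, had an NC peak in the 3' UTR and a CHAPIR peak across the stop codon. The Klf4 peaks shared the base chr4:55527593, and the CHAPIR peak ran 60 bases further toward the coding sequence, with 480 bases with NC at 7.96-fold and 540 with CHAPIR at 7.18-fold.

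Overlapping member positions were merged into 1535 regions. Of these, 1201 (78.2%) held 3' UTR peaks of both lists, 237 held a 3' UTR peak from the CHAPIR list only and 97 from the NC list only, their partner in the other list having a different annotation. The 1201 regions are called shared regions below. A region takes, in each list, the fold and FDR of its line with the smallest FDR. The median fold of shared regions was 3.41 (quartiles 2.49 and 5.28) with NC and 4.92 (3.46 and 8.32) with CHAPIR. In 620 shared regions (51.6%) the FDR was at or under 1e-05 in both lists, and in 214 (17.8%) it was above that in both. Shared regions covered 347713 exonic bases with NC and 309456 with CHAPIR, of which 244697 were common to both lists.

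The most significant shared regions of the NC list were in genes of muscle structure and of metabolite supply. Lpl, lipoprotein lipase, which frees fatty acids for uptake by heart muscle, had a peak of 597 bases with NC (chr8:68905205-68905801, plus strand, 12.3-fold) that lay wholly inside the CHAPIR peak of 657 bases (7.76-fold). Des, the muscle intermediate filament desmin, had peaks of 391 bases in both lists, offset by 30 bases (NC chr1:75367410-75367800, 4.48-fold, and CHAPIR chr1:75367440-75367830, 8.93-fold). Ankrd1, a titin-associated protein induced by cardiac stress, had peaks that ended at the same base at the gene end, chr19:36111965 on the minus strand, with 360 bases at 3.62-fold with NC and 300 bases at 5.84-fold with CHAPIR. All of these had an authors' FDR at or under 1e-212 in both lists. In these peaks of Lpl, then, the larger deposited fold was that of NC, and in those of Des and Ankrd1 that of CHAPIR. Another shared region of Lpl had 1.43-fold with NC and 2.19-fold with CHAPIR.

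Further leading members of the NC list included genes of adhesion and of the thick filament. Tns1, the focal adhesion protein tensin, had 481 bases at 4.32-fold and 390 bases at 4.07-fold. Mybpc3, cardiac myosin-binding protein C, had low folds in both lists, 1.96 with NC and 2.60 with CHAPIR, beside FDRs of 1e-211 and 1e-170. Small FDRs in the NC list thus stood beside folds from 1.96 to 12.3. Fam174b had 7.20-fold with NC and 10.9-fold with CHAPIR in peaks starting at the same base, chr7:73775876.

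The leading members of the CHAPIR list also included Des, Ankrd1 and Lpl, and beside them genes whose NC peak was weaker or shorter. Hspb6, the small heat shock protein of muscle, had 208 bases at 1.36-fold with NC and 593 bases at 4.20-fold with CHAPIR, both ending at the gene end (chr7:30555443). Pln, phospholamban, the inhibitor of the sarcoplasmic calcium pump, had 89 bases at 1.12-fold with NC (chr10:53344179-53344267) inside 149 bases at 2.41-fold with CHAPIR. The NC fold of Pln was near the lowest of any NC member, 1.11. Chchd2, a mitochondrial intermembrane protein, had 178 bases at 2.78-fold and 207 bases at 7.68-fold, and Aes, a Groucho-family corepressor, had 324 bases at 2.38-fold and 471 bases at 5.02-fold. Fuca2, an alpha-L-fucosidase, had the identical 509 bases in both lists (chr10:13515149-13515657, plus strand), at 5.14-fold with NC and 14.2-fold with CHAPIR. In each of these 5 genes, chosen by their CHAPIR FDR, the CHAPIR peak was at least as wide as the NC peak. In Ankrd1, chosen in the same way, it was narrower, with 300 bases against 360. Over the 1088 pairs of 3' UTR positions described below, the CHAPIR position was wider in 35.8% and of equal width in 16.5%.

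The highest folds fell on other genes. With NC they were those of Tcea1, a transcription elongation factor (51), Rint1 of vesicle transport (47.2), Tapbp, the peptide-loading chaperone tapasin (43.4), Zdhhc20, a palmitoyltransferase (42.9), and Sod2, the mitochondrial superoxide dismutase (41.7). The CHAPIR folds of the overlapping positions were 67.6, 31.7, 17.3, 20.8 and 15.3. With CHAPIR the highest were Nucks1, a nuclear DNA-binding protein (107), Slc27a1, a fatty acid transporter (80.6), Tcea1 at its leading position (73.9), Ecm2 (68.7) and Ucp2, a mitochondrial carrier protein (63.5). The NC folds there were 33.8, 14.5, 51, 6.57 and 2.82. Tcea1 was the only gene among the top 5 of both lists. High folds stood beside FDRs of very different size. With CHAPIR, Ucp2 at 63.5-fold had an FDR of 1e-169 and Nucks1 at 107-fold one of 6.3e-30. Zdhhc20 and Zfp317 both had 20.8-fold with CHAPIR at the same FDR of 0.000151356. The read counts behind these folds are not known here.

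Large differences between the lists were seen in Ucp2 and in Txnip, the thioredoxin-interacting protein that restrains glucose uptake. The Txnip 3' UTR had one shared region of 452 bases with NC and 421 with CHAPIR at like folds, 3.09 and 3.57, lying 743 bases before the gene end. A further region of Txnip reached past the gene end, with 242 bases at 2.34-fold with NC and 298 bases at 47.9-fold with CHAPIR. Epas1, the hypoxia-inducible factor 2 alpha, had 2.28-fold in 271 bases with NC and 16-fold in 481 bases with CHAPIR. In the other direction, beside Sod2 and Tapbp given above, the region of Zfp827 had 25.2-fold with NC and 7.07-fold with CHAPIR. Single regions of either direction were thus present among the members.

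**Figure D1:**
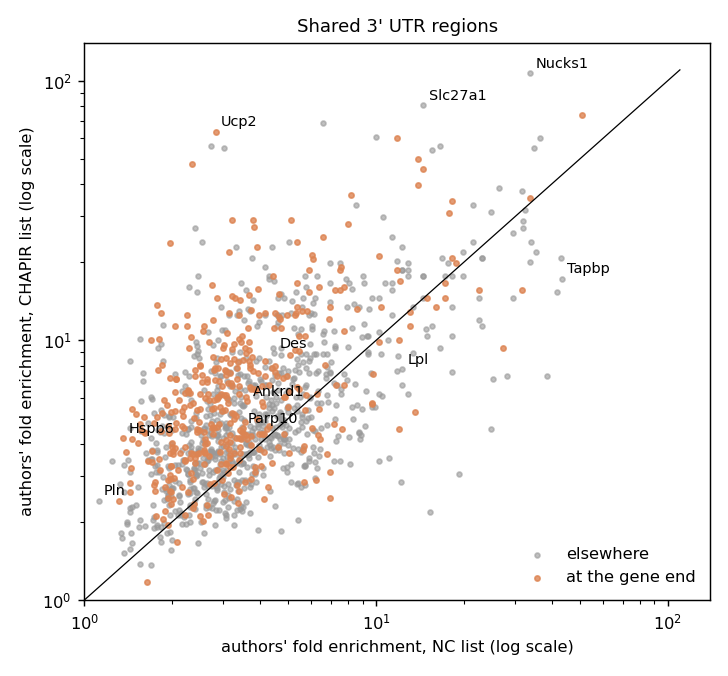
Authors' fold enrichment of each of the 1201 shared 3' UTR regions with NC (horizontal axis) and CHAPIR (vertical axis), both on log scales, with the diagonal marking equal values. Orange marks the 401 regions that reach the last 50 bases of the RefSeq gene or lie past its end. The CHAPIR value was the larger for 890 regions, and some genes described in the text are labelled.

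The plot of folds shows that most shared regions lay above the diagonal. The deposited CHAPIR fold was the larger in 890 of 1201 shared regions (74.1%). As the folds are not scaled between lists, the count was set beside other regions of the same libraries, using mutual best pairs, in which 2 positions of 1 annotation each share most bases with the other. Among 1088 such 3' UTR pairs the CHAPIR fold was the larger for 75.7% (73.1 to 78.2), with medians of 3.43 with NC and 5.07 with CHAPIR. Among 758 pairs across the stop codon it was larger for 65.8% (62.4 to 69.1), and among 1094 pairs within the coding sequence for 42.0% (39.2 to 45.0). Within the same pair of libraries the side of the larger fold therefore differed by transcript region. Over the 3' UTR pairs the folds had a Spearman rho of 0.58, given as a description over 1088 pairs that share libraries and, in part, genes.

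Widths followed a like order along the transcript. The median width was 211 bases with NC and 210 with CHAPIR over 3' UTR pairs, 419 and 330 across the stop codon, and 421 and 240 in the coding sequence. The CHAPIR position was narrower in 47.6% (44.7 to 50.6) of the 3' UTR pairs and wider in 35.8% (33.1 to 38.7). In the coding sequence it was narrower in 79.3% and wider in 10.8%. Of the 3 kinds, the 3' UTR pairs thus had the closest median widths. Identical pairs were 14.0% of them, 15.6% of those across the stop codon and 8.04% of those in the coding sequence.

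The edges of 3' UTR pairs coincided in part. The 5' edge was the same base in 26.7% (24.1 to 29.4) of the pairs and the 3' edge in 39.8% (36.9 to 42.7), and 152 pairs (14.0%) on 109 genes were identical. Where an edge had moved, the offset lay within 1 base of a multiple of 30 bases for 74.4% of 5' edges and 73.1% of 3' edges, so edges fell on a grid of that step. The 5' edge of the CHAPIR position was downstream of that of NC in 43.2% of the pairs and upstream in 30.1%, and the moved 3' edges numbered 327 downstream and 328 upstream. By place, 87 were downstream and 32 upstream at the gene end, against 136 and 177 over 1000 bases before it. The place is itself set by the 3' edge, which bears on these counts.

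Among the identical pairs, those with the smallest NC FDR were in Ldb3, Ndrg2, Fuca2, Eef2 and Kcnj3. Ldb3, the Z-disc protein also called Cypher, had the same 510 bases in both lists (chr14:34528788-34529297, minus strand), at 5.19-fold with NC and 6.50-fold with CHAPIR. Eef2, the translation elongation factor 2, had the same 241 bases at the gene end (chr10:81182258-81182498, plus strand), at 4.07-fold and 5.78-fold. Kcnj3, a subunit of the acetylcholine-gated potassium channel of the atrium, had the same 420 bases (chr2:55597546-55597965), at 4.93-fold and 11.8-fold. Ndrg2 had 211 bases at 2.58-fold and 3.72-fold. Parp10, a mono-ADP-ribosyltransferase, also had an identical pair of 210 bases (chr15:76233003-76233212, minus strand), at 3.49-fold with NC (FDR 0.000616595) and 4.58-fold with CHAPIR (FDR 2.29087e-06). In all 6 genes with identical positions named here, the deposited CHAPIR fold was the larger, as it was in 75.7% of all 1088 mutual best 3' UTR pairs.

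**Figure D2:**
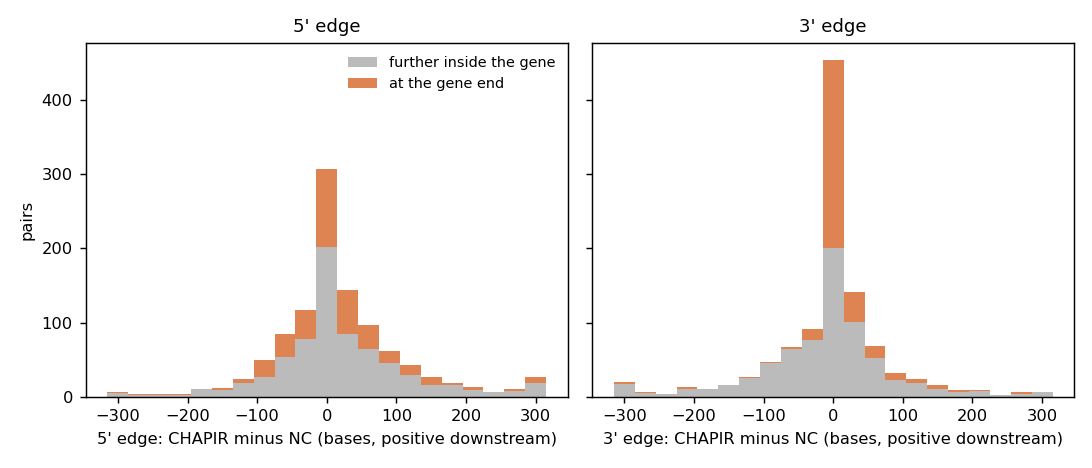
Offset in bases, along the strand, of the CHAPIR edge from the NC edge in mutual best pairs of 3' UTR positions, for the 5' edge and the 3' edge, in stacked bins of 30 bases. The 365 pairs at the gene end are in orange, the 280 and 425 pairs nearer and further inside are in grey, pairs without a RefSeq match are left out, and offsets beyond the axis are gathered in the outermost bins. The bin around 0 is the tallest on both sides. The 3' edge was the same base in 67.4% of pairs at the gene end, a place that is itself set by the 3' edge.

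The share of positions that were members varied with the place in the gene. A position was put at the gene end if its 3' edge lay at most 50 bases before the end of the RefSeq gene of the same symbol, or past it, with distances counted on the genome. At the gene end, 500 of 621 NC 3' UTR positions were members (80.5%, 77.2 to 83.4), but 633 of 1669 CHAPIR positions (37.9%, 35.6 to 40.3). Over 1000 bases before the gene end the shares were 51.7% (49.4 to 54.0) with NC and 62.8% (60.5 to 65.1) with CHAPIR. The order of the lists thus turned between the gene end and the inner 3' UTR. The lists had unequal numbers of positions at the gene end, 621 and 1669, which bears on these shares. Over 1000 bases before it they had 1769 and 1665. With only positions at an FDR at or under 1e-05 counted, members were 89.8% of NC and 44.5% of CHAPIR positions at the gene end.

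Read the other way, 23.8% of NC members and 27.3% of CHAPIR members lay at the gene end. Of the 3' UTR positions found in 1 list only, 7.25% (6.10 to 8.59) of those with NC and 46.0% (44.0 to 48.1) of those with CHAPIR lay there. Members of the 2 lists were therefore alike in position, and the positions outside the membership were not. The overlap that defines a member fixes part of this likeness, since overlapping peaks lie at like distances.

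**Figure D3:**
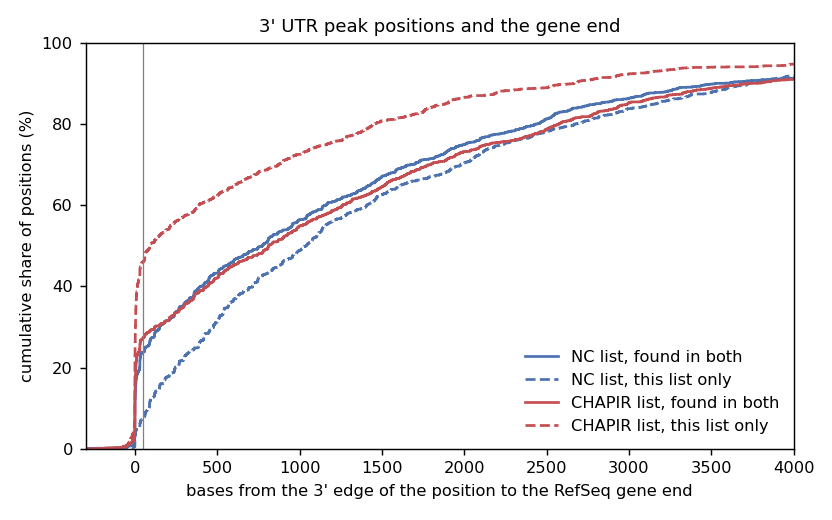
Cumulative share of 3' UTR positions, in percent, by the distance in bases from their 3' edge to the RefSeq gene end (values below 0 lie past it), for members and for positions of 1 list only, in each list. The vertical line marks 50 bases, where the curves stand at 23.8% and 27.3% for NC and CHAPIR members and at 7.25% and 46.0% for positions of 1 list only.

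Shared regions differed among themselves by the same position. Of the 1179 matched to a RefSeq gene, 401 (34%) lay at the gene end, 316 between 51 and 1000 bases before it, and 462 further inside. The CHAPIR fold was the larger in 339 regions at the gene end (84.5%, 80.7 to 87.7), with a median ratio over the NC fold of 1.81. It was larger in 74.4% (69.3 to 78.9) of the middle group, with a median ratio of 1.25, and in 66.0% (61.6 to 70.2) of the group further inside, with 1.27. Median extents were 209 bases in both lists at the gene end, and 270 bases with NC and 233.5 with CHAPIR furthest inside. The 3' edge was the same base in 67.4% (62.4 to 72) of the pairs at the gene end and in 25% and 26.4% of the other groups. The gene end group is itself set by the 3' edge, which fixes part of this likeness. Of the matched shared regions, 96 (8.14%) ran past the RefSeq gene end.

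Members at the gene end included Trim63, the muscle ubiquitin ligase MuRF1, with 151 bases at 3.30-fold with NC and 141 bases at 5.10-fold with CHAPIR. Mef2d, a transcription factor of muscle genes, had 3.02-fold in 210 bases and 9.57-fold in 240 bases, and Slc2a1, the glucose transporter GLUT1, 2.28-fold in 121 bases and 9.36-fold in 210 bases. Further inside the 3' UTR, Tmod1, the cap of thin filament pointed ends, had 33.7-fold with NC in 299 bases and 20.1-fold with CHAPIR in 179 bases, 655 bases before the gene end. The same gene had a region at its gene end with 150 bases in both lists, at 2.03-fold and 2.94-fold. In Tmod1 the larger fold thus passed from NC to CHAPIR between its inner and its gene-end region.

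Members differed from 3' UTR positions of 1 list in width and significance. The median width was 211 bases for NC members against 149 for positions found with NC only, and 210 against 148 in the CHAPIR list. An FDR at or under 1e-05 was held by 64.2% of NC members against 20.6% of the others, and by 65.1% of CHAPIR members against 46.7%. Median folds were close with NC, 3.26 and 3.32, and 4.61 against 3.99 with CHAPIR. A wide peak has more bases with which to meet another, so width is tied to the rule.

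The share of members was larger at greater width and at smaller FDR. From the narrowest positions (up to 100 bases) to those over 400 bases it went from 30.3% to 86.6% with NC and from 28.5% to 94.4% with CHAPIR. From a −log10 FDR of at most 2 to one over 20 it went from 19.9% (16.1 to 24.4) to 97.9% (95.7 to 99.0) with NC, and from 32.8% (27.4 to 38.8) to 69.3% (65.8 to 72.6) with CHAPIR. Nearly all of the most significant NC 3' UTR positions were thus met by a CHAPIR line, while 486 of the 701 such CHAPIR positions were met by an NC line. At up to 200 bases and an FDR at or under 1e-05, 272 of 352 NC positions were members (77.3%) and 393 of 1099 CHAPIR positions (35.8%). Among wider peaks of that FDR the shares were 80.2% and 76.0%, and among narrow peaks of larger FDR they were 33.4% and 37.4%.

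**Figure D4:**
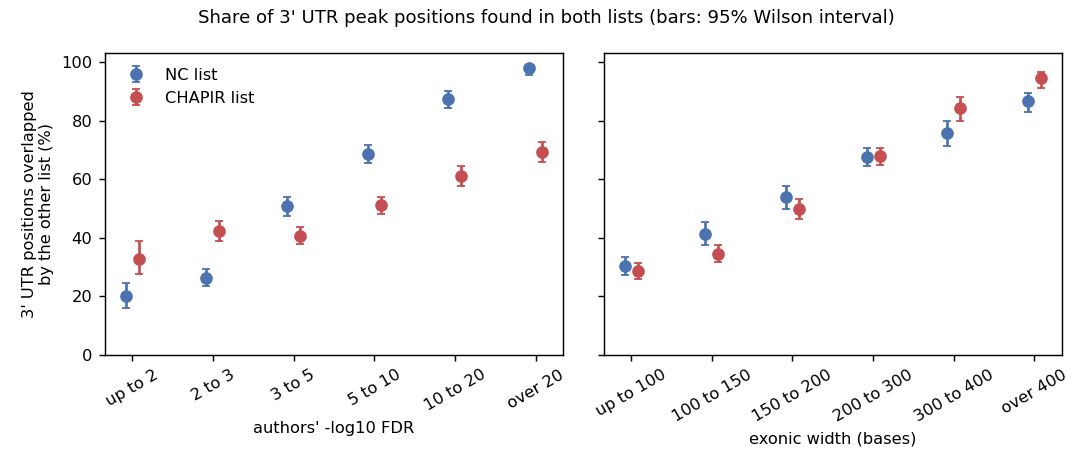
Share of 3' UTR positions that were members, in percent, by the authors' FDR (left) and by exonic width in bases (right), for the NC and the CHAPIR list, with 95% Wilson intervals. At the smallest FDRs the NC share is 97.9% and the CHAPIR share 69.3%, and at the greatest widths they are 86.6% and 94.4%.

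Genes were then grouped by function. Of the 3398 genes with a 3' UTR line in either list, 1121 (33.0%) had members of both lists, 293 had a member in 1 list only, 94 had 3' UTR lines in both lists that did not meet, 785 had 3' UTR lines with NC only and 1105 with CHAPIR only. In whole-heart RNA, fewer cells of a type and less RNA per cell cannot be told apart. The counts for each group are set beside the 33.0%, and counts of regions with the larger CHAPIR fold beside the 74.1% of all shared regions, and none carries a test.

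Among genes of the contractile apparatus and of cell junctions the share with members of both lists was above 33.0%. In the list of sarcomere and Z-disc genes, 21 of 34 genes with a 3' UTR line had members of both lists (61.8%, 45.0 to 76.1), and the CHAPIR fold was the larger in 21 of their 24 regions. They included the actin-binding Xin repeat genes Xirp1 and Xirp2, the filamin gene Flnc, Nebl, Trim55 and Tpm2. Xirp2 had an NC position of 1528 bases at 4.61-fold and a CHAPIR position of 510 bases at 3.87-fold inside it (chr2:67525207-67525716). Of the sarcomere genes outside the shared group, Actc1, Cryab, Csrp3, Hspb7, Myl2, Nexn and Ttn had 3' UTR lines with CHAPIR only, and Mypn and Tpm1 with NC only. These were 7 and 2 of the 34 genes, beside 1105 and 785 of all 3398 genes.

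In the list for the gap junction, intercalated disc and costamere the count was 14 of 22 genes (63.6%, 43.0 to 80.3), and the CHAPIR fold was the larger in 14 of 15 regions. It held the junction proteins Cdh2 (N-cadherin), Pkp2 (plakophilin 2), Dsg2 (desmoglein 2), Ctnna1 and Ctnnb1 (catenins) and Gja1 (connexin 43). Gja1, which forms the gap junctions between cardiomyocytes, had 181 bases at 1.46-fold with NC, all within 479 bases at 2.29-fold with CHAPIR. Ctnnb1 had 2 shared regions, with 1.45-fold and 1.34-fold with NC and 1.82-fold and 1.81-fold with CHAPIR. The regions of the ankyrin genes Ank2 and Ank3 and of the linker Plec had folds of 3.33, 2.58 and 2.79 with NC. With CHAPIR their folds were 7.09, 6.43 and 5.9. With CHAPIR only, 8 of the 22 genes had 3' UTR lines, among them Dmd, Itga7, Itgb1, Sptbn1, Tln1 and Vim, and 0 had them with NC only. Over all 3398 genes these counts were 1105 and 785.

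Among genes of calcium handling and ion channels, 16 of 39 had members of both lists (41.0%, 27.1 to 56.6), and the CHAPIR fold was the larger in 11 of 19 regions. Jph2, which ties the sarcoplasmic reticulum to the T-tubule, had 808 bases at 1.83-fold with NC and 61 bases at 1.68-fold with CHAPIR. Atp2b1, a plasma membrane calcium pump, had 14.8-fold and 11.1-fold, Kcnj8, a subunit of the ATP-sensitive potassium channel, 5.83-fold and 5.04-fold, and Camk2d 2.11-fold and 2.23-fold. The calcium pump gene Atp2a2 was among 12 of the 39 genes with 3' UTR lines with CHAPIR only, and 5 had them with NC only. Over all 3398 genes these counts were 1105 and 785.

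For hypertrophic signalling the count was 17 of 31 genes (54.8%, 37.8 to 70.8), with the CHAPIR fold larger in 18 of 20 regions. Rcan2, a regulator of calcineurin, had the identical 300 bases in both lists (chr17:44038977-44039276), at 3.06-fold and 4.66-fold. Insr, the insulin receptor, had 2.87-fold with NC and 6.16-fold with CHAPIR, and Prkce, protein kinase C epsilon, 5.14-fold and 6.80-fold. The calcineurin catalytic subunit gene Ppp3ca had peaks of 211 and 392 bases that met in only 3 bases. Dusp1, a phosphatase of stress kinases, had 151 bases at 2.01-fold inside 684 bases at 3.75-fold. Of the other genes, 4 had 3' UTR lines with NC only, among them Gsk3b and Hdac4, and 10 with CHAPIR only, among them Akt1, Mtor and Rhoa. These counts of the 31 genes stand beside 785 with NC only and 1105 with CHAPIR only of all 3398 genes.

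Genes of fatty acid and glucose use stood at 18 of 54 (33.3%, 22.2 to 46.6), close to the share of all genes, with the CHAPIR fold larger in 22 of 24 regions. The exceptions were 1 region of Lpl, given above, and 1 region of Ucp3, a mitochondrial carrier protein. In another region of each gene the CHAPIR fold was the larger. Hexokinase 2, Hk2, had 3 shared regions, and at its gene end it had 1.57-fold in 330 bases with NC and 4.52-fold in 450 bases with CHAPIR. Pdk4 had 2 shared regions beside its stop codon pair, at 2.05-fold in 180 bases and 1.44-fold in 90 bases with NC, and at 7.39-fold in 418 bases and 2.26-fold in 239 bases with CHAPIR. Cpt1b, the muscle carnitine palmitoyltransferase, had near-equal folds of 3.06 and 3.34. Of the tricarboxylic acid cycle genes 1 of 16 had members of both lists (Sdhd, 3.21-fold and 6.68-fold), and 12 of the 16 had 3' UTR lines with CHAPIR only, as did 1105 of the 3398 genes in all. Of the nuclear-encoded oxidative phosphorylation genes, a naming pattern that takes in the assembly factors Ndufaf4 and Ndufaf7, the count was 8 of 37, and 25 had 3' UTR lines with CHAPIR only. The CHAPIR fold was the larger in 4 of the 8 oxidative phosphorylation regions.

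Among cardiac and stress-response transcription factors 15 of 41 genes (36.6%) had members of both lists, among them Tbx5, Gata6, Srf, Yap1 and Tead1, and the CHAPIR fold was the larger in 14 of 16 regions. Gata6, a cardiac zinc finger factor, had 2.40-fold and 2.45-fold, while Srf, serum response factor, had 61 bases at 1.65-fold inside 240 bases at 3.47-fold. In the list of RNA decay and 3' UTR binding proteins the count was 9 of 25 (36.0%), with the CHAPIR fold larger in 10 of 12 regions. Ddx6, an RNA helicase of processing bodies, had the most shared regions of any gene, 4, and one of the longest overlaps, 901 bases. Upf1, the helicase of nonsense-mediated decay, had a region of 870 bases at 7.56-fold with NC and 722 bases at 19.2-fold with CHAPIR. The direction turned at its best matched positions, with 870 bases at 7.53-fold with NC and 420 bases at 5.92-fold with CHAPIR. Of the 5 m6A writers, erasers and readers with a 3' UTR line, only the reader gene Rbmx had members of both lists, at 2.26-fold and 3.7-fold, while Wtap and Ythdf2 had a member in 1 list.

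The remaining lists had shares below that of all genes. Their counts were 21 of 67 ubiquitin ligases and cullin adaptors, 9 of 28 matrix and integrin genes, 11 of 35 mitochondrial ribosomal protein genes, 13 of 45 solute carriers, 13 of 47 Zfp genes, 7 of 26 chromatin modifiers and 8 of 33 chaperones. In that order, the CHAPIR fold was the larger in 16 of 23, 7 of 9, 9 of 11, 10 of 14, 7 of 13, 6 of 8 and 8 of 8 of their regions. Fbxo32, the muscle ubiquitin ligase atrogin-1, had 7.22-fold and 9.55-fold. Cul1, a cullin scaffold, had 4.44-fold in 299 bases with NC and 17.7-fold in 389 bases with CHAPIR. Itgb5, an integrin subunit, had an identical 391 bases at 5.99-fold and 12.7-fold. The cytosolic ribosomal naming pattern gave 3 of 13, of which Rps9 is a ribosomal protein gene and Rps6kb1 is a kinase gene. Of the cell type markers, Pln, Cdh5, Flt1, Pdgfra, Pdgfrb and Rgs5 had members of both lists. Only 3 macrophage markers and 1 adipocyte marker had a 3' UTR line in either list, and none of them was a member. These numbers are too small to set beside the 33.0% of all genes.

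**Figure D5:**
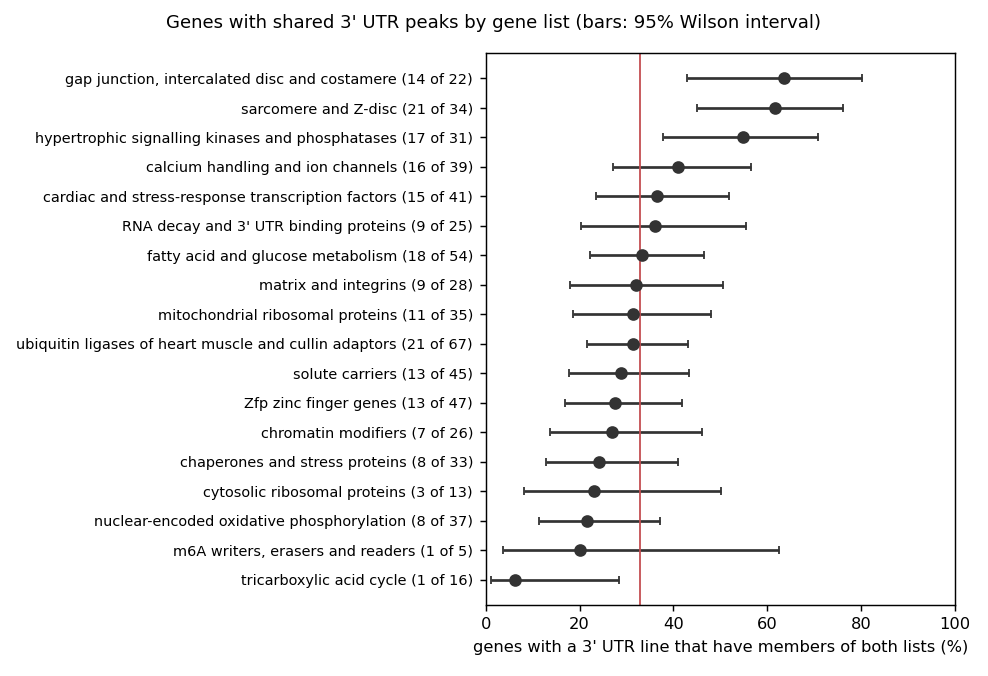
Share of genes with a 3' UTR line that had members of both lists, in percent, for each gene list, with the counts and 95% Wilson intervals. The line at 33.0% marks the share over all 3398 genes, and the intercalated disc (63.6%) and sarcomere (61.8%) lists have the highest shares.

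Most genes had a single shared region. Of 1115 genes with shared regions, 1038 had 1, 69 had 2, 7 had 3 and 1, Ddx6, had 4. The median gap between neighbouring shared regions of a gene was 602 bases. The 4 regions of Ddx6 ran over chr9:44636579-44640731 on the plus strand, the first of them 1154 bases long and the last at the gene end. In the first the folds were 3.86 with NC and 6.74 with CHAPIR, in the second 1.79 and 4.51, in the third 2.11 and 2.83, and in the last 4.14 and 3.72. The larger fold was thus that of CHAPIR in all but the gene-end region.

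The genes with 3 shared regions that the naming rule kept were Fndc5, Frmd5, Hk2 and Igfbp5. Fndc5, the precursor of irisin, had 1.82, 3.05 and 1.83-fold with NC and 1.75, 4.81 and 1.91-fold with CHAPIR, so the middle region had the highest fold in both lists. Igfbp5, an insulin-like growth factor binding protein, had 1.72, 4.73 and 3.87-fold with NC and 2.03, 5.87 and 3.18-fold with CHAPIR, counted from the gene end inward. The same region was the strongest of its gene in both lists for Fndc5, Hk2 and Igfbp5, and in Frmd5 it was not, with 2.30-fold in the region nearest the gene end with NC and 3.05-fold in the furthest with CHAPIR. The longest overlaps of a single pair were in Spop, a cullin 3 adaptor, with 1101 bases shared by positions of 1131 bases in each list (5.24-fold and 7.17-fold), and in Gbp7, a guanylate-binding protein, with 1016 bases (6.11-fold and 8.90-fold). Cers4, a ceramide synthase, and Magi3, a junctional scaffold, followed with 871 and 808 bases, and in both the larger fold was that of NC.

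At the border of the rule, members with the fewest shared bases met in 1 base, as in Abcg1, a sterol transporter (11.3-fold with NC and 15.6-fold with CHAPIR), Cat, the peroxisomal catalase (1.56 and 4.47), and Aaed1 (2.13 and 2.39). Just outside it, Kat14 (4.44-fold with NC) abutted a line of the other list with a gap of 0 bases, Aamdc (4.55-fold with CHAPIR) missed one by 2 bases and Meis2 (1.95-fold with NC) by 4.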

How the data were processed

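N6-methyladenosine was mapped by MeRIP-seq in whole hearts, with 1 immunoprecipitated and 1 input library for each of 2 conditions. Per the labels' protocols, mRNA was cut to 100 nucleotides, libraries were made with a stranded kit and sequenced for 150 cycles, reads were trimmed with cutadapt and aligned with HISAT2 (2.1.0 per the submitters' processing notes, which name GRCm38), and peaks were called with exomePeak. The sources used here do not give its options, its threshold, its use of strand or the depth. The fold that the authors deposited is the ratio of the signal in the immunoprecipitated library to that in the input. P-value and FDR are as deposited, with 0 standing for the smallest values.

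Starts count from 0 in the deposited lists and were raised by 1 for printing. Exonic blocks of both lists were intersected per strand, 1 shared base being enough, in Python 3.11.15 with pandas 2.3.3 and numpy 2.4.6. Shares carry 95% Wilson intervals computed from the counts (scipy 1.17.1), and figures were drawn with matplotlib 3.10.9. Overlaps were checked on simulated data. Gene ends were those of RefSeq on GRCm38.p6, matched by symbol. Sequences, motifs and distances to stop codons need a genome of the build and were not used here.

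The members, gene lists and naming rule were chosen with earlier results of these data known. Named genes have members of both lists that meet: the 8 of smallest FDR and the 5 of highest fold per list, the 5 with the longest overlap, with the most regions and with identical positions, up to 5 per gene list, and Parp10. Other genes were named after their values were seen, and some that the rule picks are left out. Alternatives were a shared fraction of 50%, lists of equal length, 3' UTR partners only, and thresholds of 1e-05 on the FDR or 4 on the fold. Further ones were at least 30 shared bases, whole spans with introns, and strand ignored. Every deposited line in place of positions, and a gene-end zone of 100 bases, were also tried. Not every alternative was applied to every result.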

Additional observations from a re-analysis of the deposited data

How the results depend on the processing

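No paired analysis was possible because each condition had 1 library of each kind and no test was made. For 12 results, 68 alternative values were computed, of which 34 moved by no more than the limits set and 34 moved further. The limit was a set factor for counts, and the 95% interval of the main value for shares and medians. Each member position of either list was also paired with its best partner of any annotation. Of these 4477 paired positions, 53.1% were narrower with CHAPIR, and the share lay between 49.7% and 59.6% in the alternatives. This is another measure than the 47.6% given above for mutual best 3' UTR pairs, which was not varied. With the FDR limited to 1e-05 on both sides, member lines were 1144 with NC and 1246 with CHAPIR, on 760 genes, 64.5% and 45.6% of 3' UTR lines, with median widths of 298 and 270 bases and median folds of 3.44 and 5.36. With a fold of at least 4 in both lists they were 670 and 801 lines on 520 genes, or 47.0% and 29.9%. With at least 50% of both lines shared, the shares were 38.7% and 32.8%, with 1601 CHAPIR lines, a CHAPIR width of 238 bases, folds of 3.38 and 5.04, and 49.7% of paired positions narrower with CHAPIR. With the NC list reduced to the length of the CHAPIR list, the shares were 71.1% and 43.1%, the NC width 259 bases, the NC fold 3.42 and the narrower share 59.6%. With 3' UTR partners only, the shares were 51.9% and 42.8%.

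At the gene end, the 4 alternatives chosen after seeing the data gave member shares between 66.8% and 86.7% with NC. With CHAPIR they lay between 28.0% and 37.3%, the NC share being the higher in each. In each alternative the CHAPIR list still had more positions at the gene end than the NC list. These alternatives therefore cannot tell whether the order rests on those unequal numbers. The limits are those of the design. Each condition had 1 immunoprecipitated library, depth is unknown, and a 3' UTR line missing from a list is not shown to be unmethylated. Distances to gene ends are genomic and rest on RefSeq models, while peaks were annotated to Ensembl transcripts.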
